A study of Mus musculus with 2 samples.

Results

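The genes described here write, copy, read and remove DNA methylation in the mouse embryonic forebrain. They were taken by name from the GENCODE M21 gene and transcript tables of both libraries and comprise 9 of the 55536 gene identifiers in those tables: Dnmt1, Uhrf1, Dnmt3a, Dnmt3b, Tet1, Tet2, Tet3, Tdg and Mbd1. Together they have 86 annotated transcripts, of which 60 had counts in both libraries.

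DNA methylation in mammals is the addition of a methyl group to cytosine, mostly where a cytosine is followed by a guanine (a CpG). De novo methyltransferases place the mark, and at each round of DNA replication a maintenance pair, a reader of sites methylated on the old strand only and a methyltransferase, restores it on the new strand. Tet enzymes oxidise the methyl group step by step, a DNA glycosylase can cut out the most oxidised forms for base excision repair, and methyl-CpG binding proteins read the mark. In the developing brain this system is known for the oxidised cytosine that builds up in neurons and for its role in the switch from progenitor division to differentiation.

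The tissue was forebrain of healthy B6NCrl embryos of both sexes at embryonic day 12.5, when dividing progenitors and young neurons lie side by side. Pool 1 held tissue of 120 embryos and pool 2 tissue of 68 embryos, and the labels give no treatment or altered allele. From 10 ng of RNA each, polyadenylated RNA was copied with an oligo-dT primer, amplified as full-length cDNA and cut by Nextera tagmentation. There is 1 group and no contrast, so levels, transcript shares and the ratio between the pools are given without a test. An exact sign-flip test (two-sided) of 2 pools has 0.5 as its smallest p, so none was run.

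The library of pool 1 had 33373776 gene counts and that of pool 2 had 34406601, and the spread between the pools was larger than counting noise with reads taken as independent molecules (chi-square of 8.17 per gene). All 6 forebrain, 6 neural progenitor and 6 neuron markers had at least 1 TPM in both pools, and 0 of 6 hindbrain markers did. Among all protein-coding genes 58.9% did. The hindbrain markers En1 (0.69 and 0.93 TPM) and Gbx1 (0.91 and 0.87 TPM) lay just under that limit. TPM is a transcript abundance corrected for length and scaled to a fixed total per library. The labelled tissue therefore matched its markers, but RNA of other cell types was present too. The 7 red cell markers together had 10038 TPM (pool 1) and 13581 TPM (pool 2), and the 6 mesenchyme markers 631 and 765 TPM. The 4 endothelium markers had 59.8 and 57.9 TPM and the 4 microglia markers 29.9 and 34.5 TPM, and each of these markers was detected. In bulk tissue, fewer cells of a type and less RNA per cell cannot be told apart.

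All 9 genes were detected, meaning at least 1 TPM in both pools, as were 58.9% of all protein-coding genes. Their median level was 53.5 TPM, beside 21.9 TPM over all detected protein-coding genes. Over complete coding transcripts alone, those with both ends of the coding sequence annotated, the medians were 29.3 and 15.3 TPM. From high to low the mean levels ran Tdg, Uhrf1, Dnmt1, Dnmt3a, Tet3, Mbd1, Tet1, Tet2 and Dnmt3b. Of neighbours in that order, Dnmt1 and Dnmt3a had overlapping values over the pools, and the other neighbours did not overlap. A range over 2 pools is a small base for an order. By complete coding transcripts Tet1 moved to the last place, at 6.12 TPM, with values that overlapped those of Dnmt3b at 6.32 TPM.

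**Figure D1:**
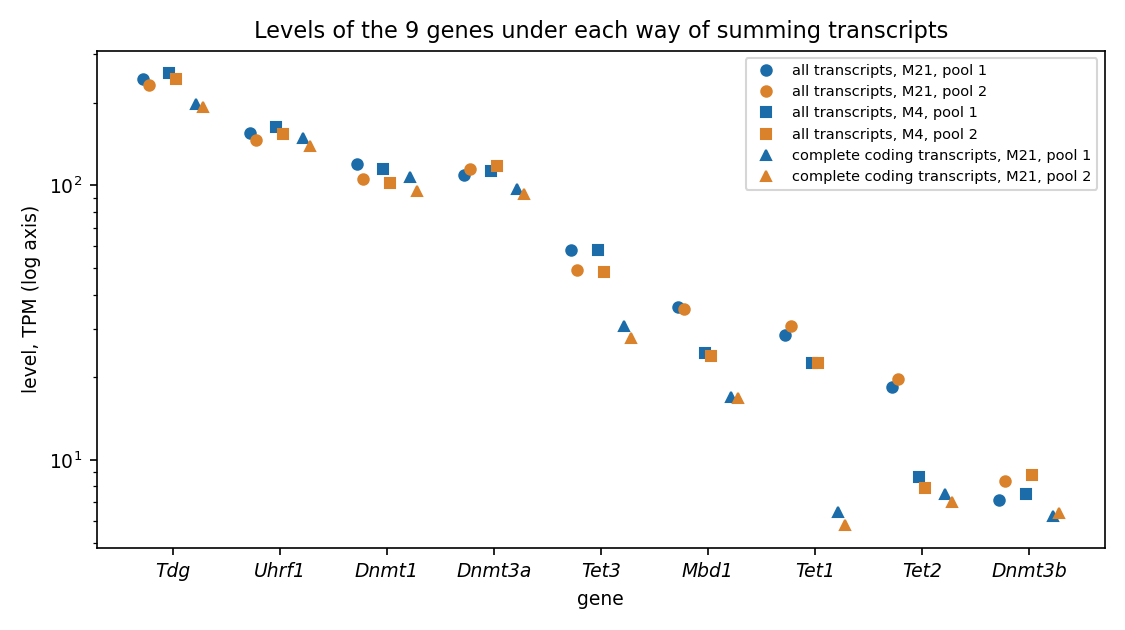
Level of each gene in TPM (log axis) in pool 1 (blue) and pool 2 (orange), for all transcripts of the gene in release M21 (circles), all transcripts in the older release M4 (squares) and complete coding transcripts of M21 (triangles). By all transcripts of M21, Tdg is highest at a mean of 237 TPM and Dnmt3b lowest at 7.77 TPM, and the symbols spread apart for Tet1, Tet2, Tet3 and Mbd1.

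The sequences that follow show starts of Dnmt1, Uhrf1 and Dnmt3a, because several results below turn on the choice between starts. Each is the 250 bases before a RefSeq transcript start in assembly GRCm38.p6, printed 5′ to 3′ along the gene with every CpG in capitals. The name gives the GENCODE transcript with the nearest start, and Dnmt3a-205 starts close to Dnmt3a-203.
Dnmt1-201, chr9:20952980-20953229, minus strand: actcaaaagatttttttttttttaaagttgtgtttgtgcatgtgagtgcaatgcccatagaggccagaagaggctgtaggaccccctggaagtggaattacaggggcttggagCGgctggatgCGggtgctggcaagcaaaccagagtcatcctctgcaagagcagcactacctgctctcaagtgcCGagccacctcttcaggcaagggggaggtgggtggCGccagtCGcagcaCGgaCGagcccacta
Dnmt1-202, chr9:20959889-20960138, minus strand: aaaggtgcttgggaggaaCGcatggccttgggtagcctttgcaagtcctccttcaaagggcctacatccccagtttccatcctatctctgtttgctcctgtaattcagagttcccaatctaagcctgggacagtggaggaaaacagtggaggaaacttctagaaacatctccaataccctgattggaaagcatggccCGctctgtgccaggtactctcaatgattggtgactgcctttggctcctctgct
Uhrf1-201, chr17:56303087-56303336, plus strand: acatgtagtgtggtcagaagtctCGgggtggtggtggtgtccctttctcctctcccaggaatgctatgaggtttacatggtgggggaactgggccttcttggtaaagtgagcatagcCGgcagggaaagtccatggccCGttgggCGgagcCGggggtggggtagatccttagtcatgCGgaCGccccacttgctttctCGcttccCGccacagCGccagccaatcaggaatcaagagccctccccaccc
Uhrf1-202, chr17:56304063-56304312, plus strand: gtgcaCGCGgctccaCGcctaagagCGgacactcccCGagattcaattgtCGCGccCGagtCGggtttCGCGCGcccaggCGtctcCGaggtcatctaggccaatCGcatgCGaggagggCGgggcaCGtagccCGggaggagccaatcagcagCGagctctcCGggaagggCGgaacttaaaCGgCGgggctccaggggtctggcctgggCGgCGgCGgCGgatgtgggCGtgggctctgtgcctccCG
Dnmt3a-201, chr12:3806730-3806979, plus strand: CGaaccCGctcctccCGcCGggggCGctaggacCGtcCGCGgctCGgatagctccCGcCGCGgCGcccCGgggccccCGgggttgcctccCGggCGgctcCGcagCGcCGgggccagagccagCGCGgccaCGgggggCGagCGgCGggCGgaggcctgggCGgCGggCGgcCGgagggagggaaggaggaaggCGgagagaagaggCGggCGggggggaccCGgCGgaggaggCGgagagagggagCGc
Dnmt3a-203, chr12:3891494-3891743, plus strand: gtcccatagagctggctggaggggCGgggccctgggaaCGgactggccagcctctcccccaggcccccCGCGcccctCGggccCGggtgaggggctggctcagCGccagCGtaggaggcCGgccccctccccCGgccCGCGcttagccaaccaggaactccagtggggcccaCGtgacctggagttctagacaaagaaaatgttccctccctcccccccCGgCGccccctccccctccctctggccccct

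The starts differed widely in CpG content. The stretch before Dnmt1-202 holds 2 CpGs and that before Dnmt1-201 holds 7, while the stretch before Dnmt1-203, not printed, holds 26. Before the Dnmt3b start, also not printed, there are 21. Before the Uhrf1 starts there are 10 CpGs upstream and 30 downstream. Before the Dnmt3a starts there are 38 upstream and 15 downstream, so in Uhrf1 the CpG-rich start is the downstream start and in Dnmt3a it is the upstream start. Over the full RefSeq windows of 300 bases, which add 50 bases after the start, the Dnmt1-202 window has more CpGs than 14.1% of all 32851 such windows and the Dnmt3a-201 window more than 98.4%. The Tet2 window stood near the top, above 99.8%.

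The 8-letter E2F-type words TTTCCCGC, TTTCGCGC, TTTGCCGC and TTTGGCGC were searched on both strands of the windows. E2F factors control genes of DNA replication. Mbd1 was left out of this search. A match lay in 2 of the 13 windows of the other 8 genes, the downstream Uhrf1 window and the window at the start of Dnmt1-203, against 2.26% of all windows. Each word holds a CpG, and the 2 windows with a match hold 33 CpGs each, against a median of 7 over all windows. The share over all windows is therefore no background of like CpG content. A match is a description of the letters and shows no binding.

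Dnmt1 (chr9:20907209-20959888 on mm10, minus strand), the maintenance methyltransferase, had 119 TPM in pool 1 and 105 TPM in pool 2, a mean of 112 ± 10.2 TPM (SD, n = 2). Pool 1 was the higher, and the level stood above 93.4% of protein-coding genes. The main transcript, Dnmt1-201, which starts at the somatic first exon and encodes 1620 codons, had 78.7 and 65.8 TPM. The other large share went to Dnmt1-202, with 25.9 TPM in pool 1 and 27.2 TPM in pool 2. Dnmt1-202 starts 6909 bases upstream and encodes 1501 codons. Oocytes are known to start Dnmt1 from an upstream first exon that gives a protein without the first part of the somatic form.

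The assignment to Dnmt1-202 rests on little sequence. Apart from its own first exon, it differs from Dnmt1-201 by a splice acceptor 3 bases further in, at chr9:20940552-20940554. The bases that Dnmt1-201 keeps there and Dnmt1-202 lacks are in capitals, with 15 flanking bases on each side.
Dnmt1-201 acceptor: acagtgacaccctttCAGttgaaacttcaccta
Among complete coding transcripts, forms with the shorter acceptor held 26.6% of the expected counts in pool 1 and 30.5% in pool 2. Expected counts are reads per transcript, with ambiguous reads shared out. In the annotation no complete coding transcript joins the somatic first exon to the shorter acceptor. A read over the acceptor and a read over the upstream exon therefore count toward the same transcript, and the tables do not tell them apart. Dnmt1-203, with the shorter acceptor but a start within a downstream exon, received 350 and 273 counts, against 2835 and 3098 for Dnmt1-202.

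Uhrf1 (chr17:56303321-56323486, plus strand) binds sites methylated on the old strand only and brings Dnmt1 to them. It had 155 TPM in pool 1 and 146 TPM in pool 2, a mean of 150 ± 5.83 TPM. It was higher than Dnmt1 in both pools, with a log2 ratio of Dnmt1 to Uhrf1 of -0.43 ± 0.07 (SD, n = 2). The complete coding transcripts held 95.8% and 94.9% of its TPM, the largest such share among the 9 genes.

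The 4 complete transcripts of Uhrf1 combine an upstream or a downstream start with a coding exon that is 24 bases longer or shorter at its acceptor. These 24 bases, at chr17:56313041-56313064, are in capitals, with 15 flanking bases on each side.
Uhrf1-201 acceptor: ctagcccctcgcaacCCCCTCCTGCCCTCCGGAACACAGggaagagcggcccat
The downstream, CpG-rich start held 55.8% of complete coding counts in pool 1 and 59.2% in pool 2. Forms with the 24 bases, which encode 782 codons in place of 774, held 77.4% and 78.3%. Both features were close between the pools. The leading transcript, Uhrf1-204, joins the downstream start to the longer exon and had 74.8 TPM in pool 1 and 83.0 TPM in pool 2. From the upstream start, Uhrf1-201 had 39.9 and 26.0 TPM and Uhrf1-203, with the shorter exon, 23.9 and 29.2 TPM. The combination of start and exon was less even: Uhrf1-202, downstream start with the shorter exon, had 670 counts in pool 1 and 45 in pool 2. The deposited posterior mean counts of that transcript were 717 with a posterior SD of 162 in pool 1, and 95.7 with 67.9 in pool 2. The start and the exon lie far apart in the transcript, and the tables do not show how many reads span both. The features of Uhrf1 taken one at a time were thus closer between the pools than Uhrf1-201 and Uhrf1-202.

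Dnmt3a (chr12:3806007-3914443, plus strand), a de novo methyltransferase, had 109 TPM in pool 1 and 114 TPM in pool 2, a mean of 111 ± 3.80 TPM. Dnmt3b (chr2:153649450-153687730, plus strand), the related de novo enzyme of the early embryo, had 7.15 and 8.39 TPM, a mean of 7.77 ± 0.877 TPM. The pools did not overlap between the genes, and Dnmt3a was 14.4-fold higher, a log2 ratio of 3.85 ± 0.11 (SD, n = 2). The counts behind Dnmt3b were 526 and 581, the fewest of the 9 genes. Dnmt3b stood above 56.0% of protein-coding genes and Dnmt3a above 93.4%.

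The long and the short form of Dnmt3a traded places with the unit. The long form has an additional stretch before the shared domains and is known at heterochromatin, and the short form from the internal start is known in stem cells and germ cells. The long transcript Dnmt3a-201 (908 codons) had 31.6 TPM in pool 1 and 28.7 TPM in pool 2, from 6435 and 6084 counts. The short transcript Dnmt3a-205 (689 codons) had 62.9 and 62.5 TPM, from 2978 and 3079 counts. Short forms therefore held 67.2% and 69.2% of the complete coding TPM but 33.2% and 35.2% of the counts. The annotated lengths differ with the start and the end. Dnmt3a-201 is 9685 bases long and ends at chr12:3914443, and Dnmt3a-205 is 2328 bases long and ends at chr12:3907842. Their coding sequences, of 908 and 689 codons, differ far less in length than the whole transcripts. Dnmt3a-203, a short form that ends at the same position as Dnmt3a-201 but has 5424 bases, received 226 and 230 counts. Across all 11750 detected protein-coding genes with more than 1 transcript, the leading transcript by TPM was not the leading transcript by counts in 12.4%, and it was not in 2 of the 9 genes, Dnmt3a and Tet1.

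Most Dnmt3b RNA was assigned to forms that lack coding exons. The leading transcript, Dnmt3b-206 (776 codons), had 4.47 TPM in pool 1 and 4.72 TPM in pool 2, against 1.14 and 1.40 TPM for the full-length Dnmt3b-201 (860 codons). Splice forms of Dnmt3b that lack exons of the catalytic part are known to have lost methyltransferase activity. Dnmt3b-206 lacks an early exon of 60 bases, at chr2:153670849-153670908, and adjoining late exons of 70 and 119 bases, at chr2:153683608-153683677 and chr2:153684359-153684477. The exons are in capitals below, from Dnmt3b-202, with 15 flanking bases on each side, and the last line is the join that Dnmt3b-206 makes in place of the late exons.
Dnmt3b early exon: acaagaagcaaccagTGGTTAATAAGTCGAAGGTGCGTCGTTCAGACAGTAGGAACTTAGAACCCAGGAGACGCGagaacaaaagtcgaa
Dnmt3b late exons: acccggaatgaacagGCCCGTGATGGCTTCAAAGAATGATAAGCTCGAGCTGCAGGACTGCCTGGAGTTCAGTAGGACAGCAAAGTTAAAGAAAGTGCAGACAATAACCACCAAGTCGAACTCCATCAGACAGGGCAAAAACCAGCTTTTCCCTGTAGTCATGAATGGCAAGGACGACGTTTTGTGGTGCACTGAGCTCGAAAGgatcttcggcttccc
Dnmt3b-206 join: acccggaatgaacaggatcttcggcttccc

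Forms without both late exons held 71.2% of complete coding counts in pool 1 and 72.4% in pool 2. By the deposited posterior mean counts the shares were 65.7% and 66.1%. Forms without the early exon held 71.2% and 73.8%. The pools were close, but the numbers were small: the forms with the late exons rested on 148 and 154 counts. Full-length Dnmt3b-207 received 46 counts in pool 1 and 15 in pool 2, but its posterior mean counts were 58.1 and 56.9, so that gap was not seen by that estimate. For Dnmt3b-201 the counts were 102 and 130 and the posterior means 49.6 and 49.8. The leading Dnmt3b-206 had 366 and 403 counts, and its posterior means were 277 and 285. Its mean share of the gene TPM was 59.3%, but 41.9% by posterior mean TPM. The retained intron Dnmt3b-212 had 0.48 and 1.28 TPM.

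**Figure D2:**
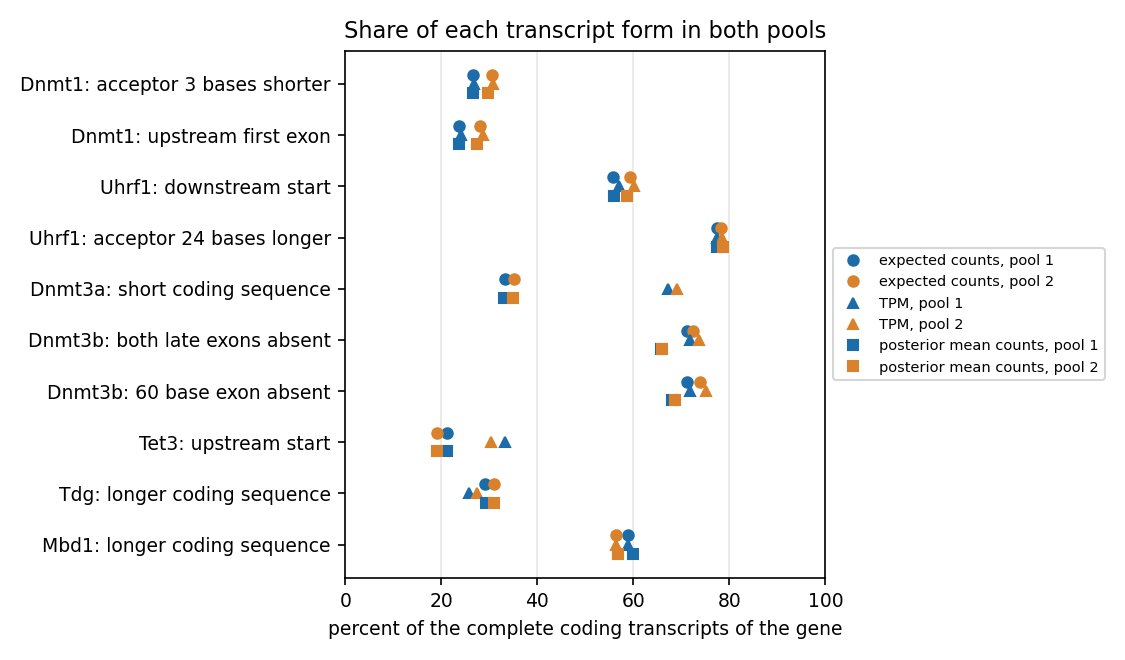
Percent of the complete coding transcripts of each gene that had the named feature, in pool 1 (blue) and pool 2 (orange), by expected counts (circles), TPM (triangles) and deposited posterior mean counts (squares). The pools lie close in every row, while the units separate for Dnmt3a, where short forms hold 67.2% of TPM and 33.2% of counts in pool 1, and for Tet3.

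Among the dioxygenases that oxidise methylated cytosine, Tet3 was the highest in both pools. Tet3 (chr6:83362373-83459084, minus strand) had 57.9 TPM in pool 1 and 49.1 TPM in pool 2, a mean of 53.5 ± 6.22 TPM. Tet1 (chr10:62804570-62908996, minus strand) had 28.5 and 30.7 TPM, a mean of 29.6 ± 1.56 TPM. Tet2 (chr3:133463679-133545139, minus strand) had 18.5 and 19.7 TPM, a mean of 19.1 ± 0.849 TPM. The 3 genes did not overlap over the pools. Tet1 is best known from embryonic stem cells and germ cells, Tet2 from blood cells, and Tet3 from the oocyte and the nervous system.

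For the Tet genes and Mbd1, much of the gene TPM was assigned to transcripts without a complete coding model. Such an assignment does not show that the reads came from RNA other than the complete transcripts. Complete coding transcripts held 22.6% of the Tet1 TPM in pool 1 and 18.8% in pool 2. The same shares were 40.9% and 35.6% for Tet2, 53.2% and 56.5% for Tet3, and 46.8% and 47.7% for Mbd1. Over all detected genes with more than 1 transcript the median share was 83.1%, and the other 5 members lay between 76.3% and 95.8%. By counts the picture differed: complete transcripts held 81.2% and 78.1% of the Tet1 counts, and of the 4 genes only Mbd1 stayed under 50%, at 44.6% and 46.2%. A short transcript needs few reads for a high TPM.

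**Figure D3:**
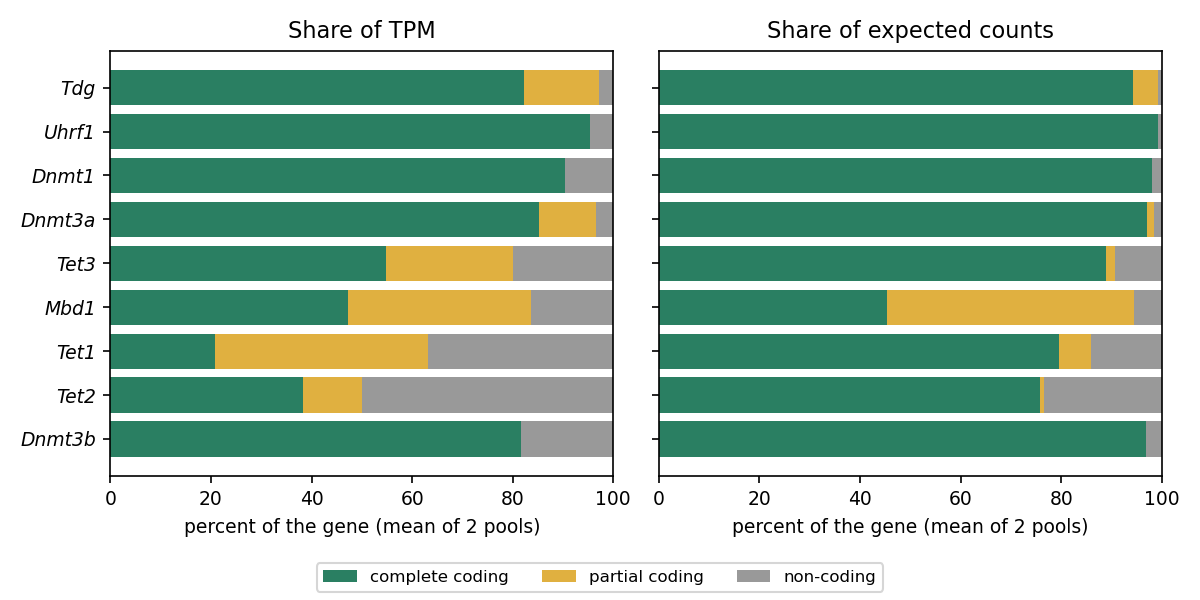
Percent of each gene's TPM (left) and expected counts (right), mean of both pools, in complete coding transcripts (green), coding transcripts annotated without a start or an end of the coding sequence (yellow) and non-coding transcripts such as retained introns (grey). Tet1, Tet2, Tet3 and Mbd1 have the smallest green bars on the left, and on the right only Mbd1 stays under 50%.

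Tet1 showed the widest gap between the units. The full-length Tet1-206 (2039 codons) had 5.98 TPM in pool 1 and 5.78 TPM in pool 2, from 1811 and 1825 counts over a model of 14369 bases. The non-coding Tet1-202 of 1505 bases had 10.4 and 11.4 TPM from 310 and 354 counts. The partial Tet1-207 of 414 bases had 6.97 and 9.23 TPM from 47 and 64 counts. Another partial transcript, Tet1-205, had 3.47 and 3.57 TPM. Tet1-207 starts inside the gene, downstream of the start of Tet1-206, and the RefSeq window of Tet1 lies at that inner start. By complete coding transcripts Tet1 came to 6.12 ± 0.474 TPM (n = 2), and the order of Tet1 and Tet2 turned: the log2 ratio of Tet1 to Tet2 was 0.64 ± 0.01 for whole genes and -0.25 ± 0.04 for complete coding transcripts.

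In Tet2 the full-length Tet2-201 (1912 codons) had 7.27 ± 0.382 TPM (n = 2), higher in pool 1, and the retained intron Tet2-210, annotated as 1 exon of 1627 bases, had 6.65 and 7.83 TPM. The partial Tet2-205 had 2.30 and 2.17 TPM. Retained-intron RNA can come from unspliced precursor as well as from a stable transcript, and the tables do not separate them. The older release M4 lists 1 Tet2 transcript where M21 lists 10, and there the gene had 8.63 and 7.93 TPM. The Tet2 level in M21 was 2.30-fold that in M4, where Tet2 overlapped Dnmt3b (7.53 and 8.83 TPM). Past 1.5-fold between the releases stood 1 of 9 members (Tet2), beside 5.91% of 12992 protein-coding genes, or 4.9% counting only those higher in M21. Mbd1, with 1 transcript in M4 and 6 in M21, was next at 1.48-fold, and Tet1 at 1.32-fold.

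Tet3 has coding transcripts from different starts. Tet3-202, from the downstream start (1668 codons), had 20.6 TPM in pool 1 and 19.3 TPM in pool 2. Tet3-203, from the upstream start (1803 codons), had 10.2 and 8.42 TPM. The pools did not overlap between the forms. The non-coding Tet3-201 had 10.0 and 9.09 TPM. In the translated models, the cysteine pattern of a CXXC zinc finger, a fold that binds unmethylated CpG, was found in Tet3-203 and not in Tet3-202. It was also found in every complete coding model of Dnmt1, Tet1 and Mbd1, and in 0.152% of all 21782 genes with such a model. The upstream form held 21.2% and 19.1% of complete coding counts and 33.2% and 30.4% of TPM. The partial Tet3-204 of 469 bases, which starts further upstream than Tet3-203, had 16.3 TPM in pool 1 and 10.9 TPM in pool 2. These came from 128 and 89 counts, with posterior SDs of 19.5 and 20.0 counts. In TPM, this fragment made up most of the gap between the pools in the Tet3 gene level. In counts it was a small part, as the gene had 6713 in pool 1 and 6427 in pool 2.

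Tdg (chr10:82629828-82650799, plus strand), the glycosylase that removes oxidised methylcytosine and thymine from mismatches with guanine, was the highest of the 9. It had 243 TPM in pool 1 and 231 TPM in pool 2, a mean of 237 ± 8.22 TPM, above 97.3% of protein-coding genes. It stood 4.44-fold above Tet3, the Tet gene of the highest level. Tdg-201 (397 codons) had 146 and 140 TPM, and Tdg-208 (421 codons) had 50.6 and 52.7 TPM. The partial Tdg-210, which starts inside the gene, had 37.1 and 31.5 TPM. The processed copy Tdg-ps received 8.95 and 8.93 counts against 13343 and 13523 for Tdg. Tdg shares 367 exon bases with Glt8d2 on the other strand, and Glt8d2 had 2.22 and 2.28 TPM. Since use of strand in the counting is not given, reads there cannot be told apart.

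Mbd1 (chromosome 18, plus strand), which binds methylated CpG through one domain and unmethylated CpG through CXXC fingers, had 36.1 TPM in pool 1 and 35.3 TPM in pool 2, a mean of 35.7 ± 0.566 TPM. The leading transcript, Mbd1-204, is annotated without a complete coding sequence and had 13.5 and 12.5 TPM. It led by counts as well, with 1099 and 1057. Of the complete transcripts, Mbd1-202 (644 codons) had 9.93 and 9.49 TPM and Mbd1-201 (588 codons) had 6.96 and 7.35 TPM. The retained-intron Mbd1-203 had 3.52 and 3.60 TPM. The coding models differ in the number of CXXC finger patterns found, 3 in Mbd1-202 and 2 in Mbd1-201. A leading transcript that is not complete coding was seen in 2 of 9 members (Tet1 and Mbd1), beside 12.7% of all detected genes with more than 1 transcript.

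The ratio between the pools was close to 1 for every member. It was taken on expected counts normalised with TMM, a scaling by the bulk of genes, as log2 of pool 1 over pool 2, with an exact binomial interval at 95% that covers counting error only. Past 1.2-fold stood 0 of 9 members, beside 28.8% of the 19063 genes whose mean count reached 10. Much of that background is low counts: among the 9589 genes whose mean count reached 500, all 9 members included, it was 6.94%.

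With this scaling Dnmt1 differed most, at 0.19 (0.16 to 0.23), from 12221 counts in pool 1 and 11250 in pool 2. Tet3 followed at 0.14 (0.09 to 0.19), and Dnmt3b had the only value below 0, at -0.07 (-0.24 to 0.10). The interval lay above 0 for 6 members and crossed 0 for Dnmt3b, Tet2 and Mbd1. With TMM 8 of 9 members were higher in pool 1. Their median was 0.09, beside -0.003 over the 19063 genes and 0.02 over the 9589 genes. How many of all genes lay above 0, or had an interval off 0, was not counted, so both counts describe the members only. With spike-in totals 1 of 9 members was higher in pool 1, since that scaling moved the median of all genes to -0.17 and that of the members to -0.08. Spike-in scaling moves all genes alike, so it could not change the place of the members' median above that of all genes. By log2 of TPM + 1, 5 were higher in pool 1 and 4 in pool 2. The order changed as well: by that measure Tet3 differed most, at 0.23, and by spike-in totals Dnmt3b did, at -0.23, with Dnmt1 at 0.03. All 7 red cell markers and 4 of 6 mesenchyme markers were more than 1.2-fold higher in pool 2. Forebrain markers passed 1.2-fold too, Dlx1 (log2 0.52) and Dlx2 (0.66) higher in pool 1 and Emx1 (-0.31) higher in pool 2. So did the progenitor marker Fabp7 (0.27) and the neuron marker Elavl3 (-0.36). The part of such differences between the pools in these ratios was not tested.

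**Figure D4:**
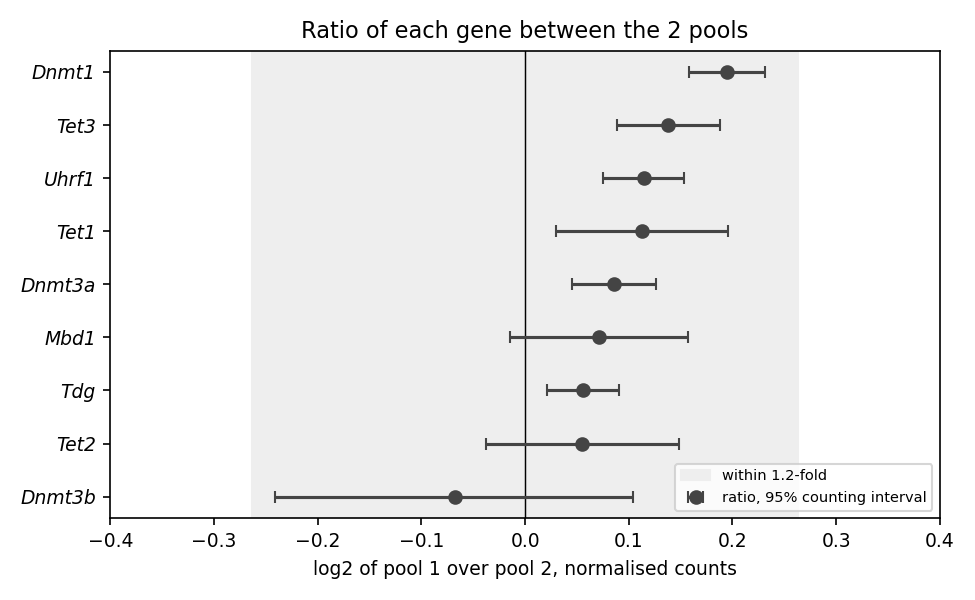
Log2 ratio of pool 1 over pool 2 for each gene, from TMM-normalised expected counts, with exact binomial 95% intervals as bars and the span within 1.2-fold in grey. Every point lies in the grey span, from 0.19 for Dnmt1 to -0.07 for Dnmt3b, and the interval is widest for Dnmt3b, which has the fewest counts.

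The rest of the pathway was read from lists chosen by role. Of 8 partners of maintenance and de novo methylation, 7 were detected, with a median of 51.0 TPM. Cdca7 and Hells, which together remodel nucleosomes for methylation, had 196 and 179 TPM and 70.2 and 69.7 TPM in pools 1 and 2. Lig1, the ligase of replication that also recruits Uhrf1, had 107 and 109 TPM. Uhrf2, the paralogue of Uhrf1, had 68.9 and 74.1 TPM, under Uhrf1 in both pools. The partner that was not detected was Dnmt3l, the inactive cofactor of the de novo enzymes in germ cells, listed at 0 in pool 1 and at 0.06 TPM in pool 2.

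Among 8 other genes listed as readers of methylated DNA, not all of which bind it well, 7 were detected, with a median of 13.7 TPM. Mbd3, which sits in a nucleosome remodelling and deacetylase complex and has lost most binding to methylated CpG, was far above the rest at 243 and 256 TPM. Mbd4, a glycosylase for the same mismatches as Tdg, had 22.4 and 22.5 TPM. Zbtb4 was the reader not detected, at 0.98 TPM in pool 1 and 1.19 in pool 2. It was also the gene of this list past 1.2-fold between the pools, with a log2 ratio of -0.28. That is 1 of 8, beside 28.8% of all genes whose mean count reached 10.

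The base excision list had 12 of 14 genes detected, with a median of 22.4 TPM. Apex1, the endonuclease that acts after a glycosylase, had 270 and 274 TPM, and Parp1, which senses the nick, 199 and 189 TPM. Of the other glycosylases, Ung had 50.2 and 54.5 TPM, Smug1 19.2 and 21.4 TPM and Neil2 0.62 and 1.11 TPM, so Tdg exceeded each of them in both pools. Of the 13 genes of this list whose mean count reached 10, 2 were past 1.2-fold between the pools, beside 28.8% of all such genes. They were Gadd45a, a stress gene linked to demethylation, and Neil2, with log2 ratios of -0.37 and -0.44, both higher in pool 2. Neil2 rested on 34 and 49 counts.

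Genes that supply the methyl donor or the Tet cofactor were all detected, 7 of 7, with a median of 163 TPM. Mat2a, which makes S-adenosylmethionine, had 370 and 372 TPM. Idh1 and Idh2, which make the 2-oxoglutarate that Tet enzymes use, had 277 and 268 TPM and 280 and 289 TPM. Ogt, a sugar transferase that binds Tet proteins, had 170 and 156 TPM.

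All 6 genes of the CXXC list were detected, with a median of 51.1 TPM. Kdm2b, which brings a Polycomb complex to unmethylated CpG islands, had 92.4 and 84.4 TPM. Of 4 genes that protect imprints, 3 were detected: Trim28 at 289 and 310 TPM, Zfp57 at 151 and 154 TPM and Zfp445 at a mean of 95.1 TPM. The oocyte factor Dppa3 was listed at 0 in pool 1 and had 0.08 TPM in pool 2.

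Of 8 germline genes known to be silenced by promoter methylation in the body, 0 were detected, beside 58.9% of all protein-coding genes. The highest, the germ cell helicase Ddx4, had 0.60 and 0.67 TPM, and Dazl, an RNA-binding protein of germ cells, had 0.26 and 0.35 TPM. Sycp1 and Asz1, of meiosis and of piRNA function, were listed at 0 in both pools. Methylation of these promoters was not measured here.

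**Figure D5:**
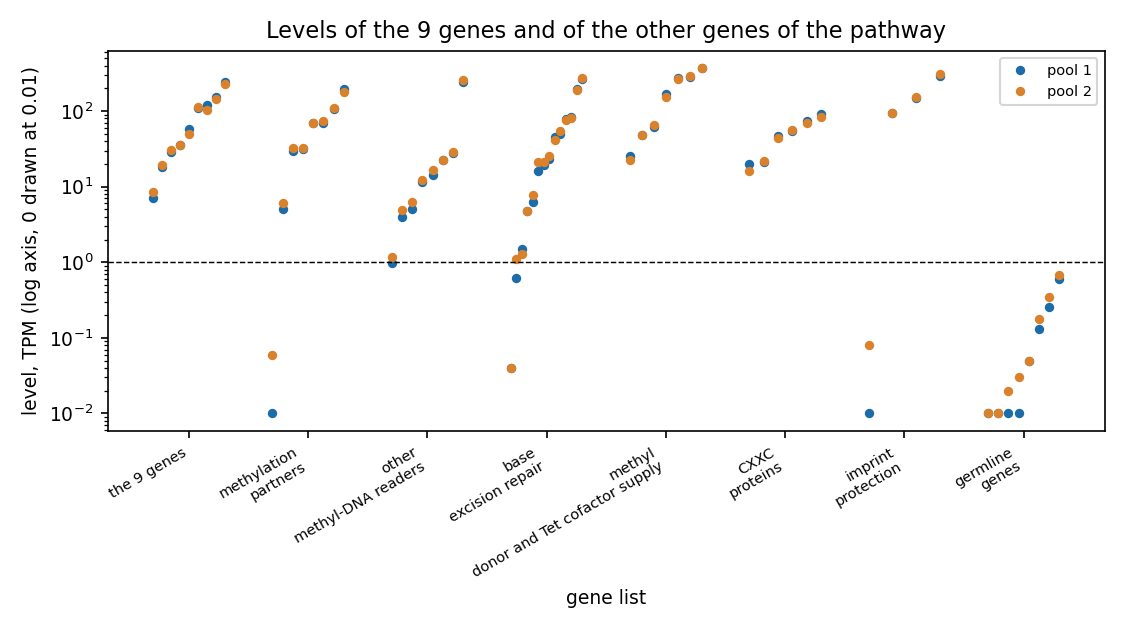
Level in TPM (log axis, values of 0 drawn at 0.01) of the 9 genes and of the genes of the 7 pathway lists, with pool 1 in blue, pool 2 in orange, genes of a list sorted by mean level, and a dashed line at the detection limit of 1 TPM. The 8 germline genes all lie under the line, and the 7 genes of methyl donor and Tet cofactor supply all lie above it.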

How the data were processed

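RNA-seq of 2 forebrain pools was analysed. The members and gene lists were chosen with earlier results of these data known. The authors deposited, for mm10 and GENCODE releases M21 and M4, expected counts (estimated reads, not normalised), TPM and FPKM per gene and transcript, and posterior mean counts with their SD, held here as a score, per the file headers. The column names are those of RSEM output. The tools that made them and the use of strand were not given in any source used here. M21 was the main annotation. Entries that name no gene, left out, held 5.74e-05% and 9.00e-05% of counts. Levels were given as mean ± SD, and the labels call the pools biological replicates. Expected counts were rounded, scaled with TMM (edgeR 4.0.16, R 4.3.3) and given a prior count of 1. DESeq2 1.42.0 size factors and spike-in totals were alternatives. Tables were joined with pandas 2.3.3 in Python 3.11.15. The pool ratio was tested on simulated data with 200 changed genes. Transcripts were named where they held at least 10% of a gene's TPM in either pool or led by counts, and a few more to complete a comparison, chosen after their values were seen. Any gene of a pathway list could be named, and 1 is not reported here. Sequences came from RefSeq (GRCm38.p6) and GENCODE M21.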

Additional observations from a re-analysis of the deposited data

How the results depend on the processing

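With 2 pools of 1 group, values describe these libraries. The level of every member was lower over complete coding transcripts, by the largest shares for Tet1, Tet2, Tet3 and Mbd1. The forms of Dnmt3b rested on few counts. The median level of the members was 53.5 TPM, 42.9 TPM over protein-coding transcripts and 29.3 TPM over complete coding transcripts. The log2 ratio of Tet3 to Tet1 was 0.85, against 1.24 with M4, 1.19 over protein-coding and 2.26 over complete coding transcripts. The ratio of Dnmt3a to Dnmt3b was 3.85, against 4.09 over protein-coding transcripts. The ratio of Dnmt1 to Uhrf1 was -0.43, against -0.55 with M4 and -0.50 over protein-coding as over complete coding transcripts. Each kept its direction. Leaving out a pool gave ranges of 49.1 to 57.9 TPM for the median level, 3.77 to 3.93 for Dnmt3a to Dnmt3b, 0.68 to 1.02 for Tet3 to Tet1 and -0.48 to -0.37 for Dnmt1 to Uhrf1. The count of members past 1.2-fold between the pools was also 0 with DESeq2 size factors, spike-in totals and M4, and the other 3 alternatives, a stricter fold and other filters, could not change it. Restriction to complete coding transcripts, and the shares of grouped forms by TPM and posterior mean, were chosen after seeing the data. No paired analysis was possible because there is 1 group.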
